A study of Drosophila melanogaster with 3 samples.

Results

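The 9 genes described here are those of the Hedgehog signal and of the prepattern that positions the wing veins in *Drosophila melanogaster*. They are hh, ptc, ci, en, ara, caup, mirr, salm and salr, taken by name from the 17947 genes of the annotation (Ensembl, build dm6). Chromatin immunoprecipitation with sequencing (ChIP-seq) was done on whole prepupae, males and females together, of a single transgenic fly line. The flies make the protein net joined at its C-terminus to green fluorescent protein (GFP), and the sample descriptions give an antibody against GFP, while the antibody field of the labels names net. All 3 libraries, biological replicates 1, 3 and 4, share this genotype, tissue and stage, and the age within the stage is given as unknown. No untagged or other control group was analysed here, so nothing below is a comparison between conditions, and signal that any GFP precipitation gives is not separated from binding of net.

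Hedgehog is a signal secreted by the posterior cells of the wing disc, where the homeodomain protein Engrailed keeps the gene hh on. Its receptor Patched sets how much of the transcription factor Cubitus interruptus is in its activating form, and ptc is itself a target of the pathway. Hedgehog also induces the BMP ligand gene dpp along the compartment border. Decapentaplegic in turn activates the zinc-finger genes salm and salr, whose expression border places a longitudinal vein. The Iroquois homeodomain genes ara and caup mark other vein territories, and mirr, the further gene of that complex, acts in dorsal patterning. The protein net is a basic helix-loop-helix factor that keeps intervein cells from becoming vein.

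At each gene, peak summits were read inside the gene and up to 2 kb on either side. The main list held 7571 summits that passed the irreproducible discovery rate (IDR) procedure, and they are the 7571 strongest of 30000 summits called on the pooled libraries. Signal is the authors' value per peak and was used to rank peaks within a list, with rank 1 the strongest. IDR signals ran from 134 to 3742, with a median of 225. Each library has its own list of 30000 summits. A summit counted as matched in a library if one of that library's 7571 strongest lay within 100 bp. Depth is unknown because the lists hold no read counts. In whole animals, a site bound strongly in few cells and one bound weakly in many cannot be told apart.

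Of the 9 genes, ptc, salr and ara had an IDR summit, and hh, ci, en, caup, mirr and salm had none. These 3 of 9 (33.3%) compare with 34.4% of all 13968 protein-coding genes. The 9 genes are long, with spans of 4205 to 16611 bp against a median of 2164 bp for protein-coding genes. Of the 2784 protein-coding genes within that range of spans, 49.8% had an IDR summit. They were not matched for span within the range, where all members but en span at least 9332 bp. A share this close to the background is no result about the group, and the description rests on the single genes. The 8 IDR summits were unevenly spread, with 6 at ptc, 1 at salr and 1 at ara. Their strongest ranked 1324, so none was among the 757 strongest of the list.

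**Figure D1:**
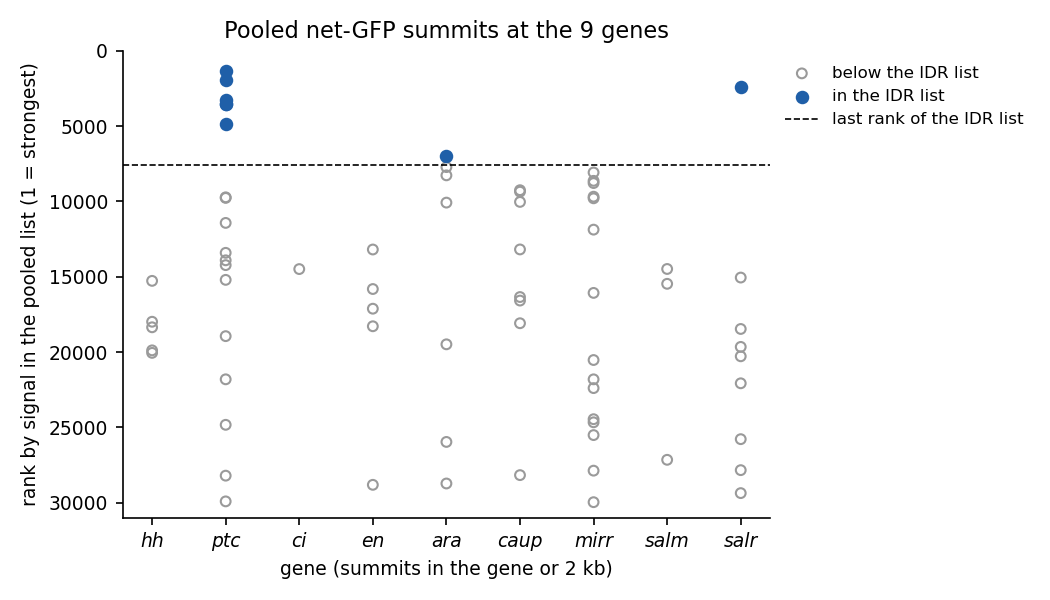
Rank by signal in the pooled list (vertical axis, strongest at the top) of each summit in the gene or 2 kb, for the 9 genes. Filled points are the 8 IDR summits, open points the 63 weaker pooled summits, and the dashed line is the last IDR rank, 7571. Only ptc, ara and salr have filled points.

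In the separate libraries, too, ptc had the most summits. At ptc, 7 of the 7571 strongest summits lay in the window in each of replicates 1, 3 and 4. The gene salr had 1 in each library. At mirr the counts were 2, 0 and 1 in replicates 1, 3 and 4, at caup 1, 0 and 1, at ara 0, 1 and 1, and at ci 0, 1 and 0. The genes hh, en and salm had 0 in every library. In replicate 1, the strongest summits at hh and en ranked 7732 and 7841, just past the limit of 7571. Thus ptc and salr had such a summit in all libraries, and the Iroquois genes and ci in some. At ara, caup and mirr, the libraries' summits matched different pooled summits. For ara, that of replicate 3 was at the start site and that of replicate 4 was 9677 bp downstream. For caup, replicate 1 matched 124 bp upstream and replicate 4 matched 6951 bp downstream. For mirr, replicate 1 matched 443 bp upstream and 10955 bp downstream, and replicate 4 matched 9910 bp downstream. Of the 9 genes, 4, 4 and 5 had such a summit in replicates 1, 3 and 4, against 36%, 37.4% and 34.1% of protein-coding genes.

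Hedgehog, the ligand, is encoded by hh (FBgn0004644) on 3R from 23128169 to 23141906, minus strand. In its window, 5 pooled summits lay below the IDR list, at ranks 15272 to 20051, and 1 of them was found in all 3 library lists. The strongest lay 221 bp upstream of the transcription start site (TSS) and ranked 14594 in replicate 1 and 20207 in replicate 3, with no summit within 100 bp in replicate 4. On its own list, replicate 1 had 9 summits in the window. The strongest of them ranked 7732 and was matched to none of these pooled summits. Signal in the IDR list began farther upstream. Between 2 and 10 kb from the gene there were 3 IDR summits in intergenic sequence. The strongest, 7367 bp upstream at 23149273, had signal 311 and rank 2337, and ranked 3319, 3913 and 1884 in replicates 1, 3 and 4. Another lay 5944 bp upstream, with rank 4678 and library ranks of 4519, 4997 and 4628, which are close to each other. The third lay 2821 bp upstream, with rank 7328, near the end of the list, and was found in replicates 1 and 4, at ranks 5588 and 9358, with the nearest summit of replicate 3 127 bp away. The nearest TSS of all 3 was that of hh. The strongest far summit and the near one below the list are shown as genome sequence reaching 50 bp to either side of the summit (Release 6, dm6, plus strand). In these and the later sequences capitals mark E-boxes, the CANNTG sequence that basic helix-loop-helix proteins recognise, and GAGAG or its complement CTCTC, the core of GAGA factor sites.
hh, 7367 bp upstream, chr3R:23149223-23149323: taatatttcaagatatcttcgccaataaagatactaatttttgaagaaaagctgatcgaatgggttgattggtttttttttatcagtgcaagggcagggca
hh, 221 bp upstream, chr3R:23142077-23142177: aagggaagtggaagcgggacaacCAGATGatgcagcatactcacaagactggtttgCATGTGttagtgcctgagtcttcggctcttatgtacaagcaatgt
The stronger summit held no E-box, and the weaker one held 2.

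The transcription factor gene ci (FBgn0004859) lies on chromosome 4 from 47710 to 57041, minus strand. That chromosome carried 10 of the 7571 IDR summits. The window of ci held 1 pooled summit, of rank 14490, which lay 1877 bp upstream of the TSS and ranked 10882 in replicate 1 and 10765 in replicate 3. It had no summit within 100 bp in replicate 4. On its own list, replicate 3 had 2 summits in the window. The stronger of them ranked 5562 and was not the one matched to this pooled summit. One IDR summit, at 60450, lay 3409 bp upstream of ci in an intron of the antisense RNA gene asRNA:CR43957, with signal 208 and rank 4257. Replicates 1 and 3 ranked it 2237 and 5224, and the nearest summit of replicate 4 was 111 bp away, at rank 7503. It is shown because it is the IDR summit nearest to ci and holds the E-box CATATG at 2 places, in a window of 23.8% GC. An E-box was present at 36.7% of all IDR summits and in 42.5% of windows centred 250 bp to the side.
ci, 3409 bp upstream, chr4:60400-60500: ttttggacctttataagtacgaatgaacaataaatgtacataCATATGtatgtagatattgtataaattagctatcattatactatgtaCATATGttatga

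The receptor gene ptc (FBgn0003892) lies on 2R from 8649649 to 8665223, plus strand, and held most of the IDR summits of the group. Its 6 summits amount to 3.07 per 10 kb of window, against 0.55 per 10 kb over the genome. Of all protein-coding genes, 2.05% had at least 6. That share was not matched for span, and ptc spans 15575 bp against a median of 2164 bp. The strongest summit of ptc lay in an intron, 2807 bp downstream of the TSS, at 8652456, with signal 431. It ranked 1324 in the pooled list and 1768, 1284 and 1212 in replicates 1, 3 and 4, a mean of 1421 ± 302 (SD, n = 3). For scale, the strongest summit of a protein-coding gene that has any ranked 2204 at the median.

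Of the other 5 summits of ptc, 3 lay in the same gene's introns. Those 952, 4826 and 5807 bp downstream of the TSS ranked 3244, 3503 and 3508 in the pooled list. Their mean library ranks were 3441 ± 410, 3540 ± 618 and 3870 ± 910 (SD, n = 3 each), so the order of these 3 was within the spread between libraries. The nearest TSS of all 4 intronic summits was that of lncRNA:CR44281, a non-coding gene whose start lies within ptc. At the promoter, 48 bp upstream of where ptc starts, a summit had signal 190 and rank 4834. Replicate 3 ranked it 3010 and replicate 4 ranked it 5696, while the nearest summit of replicate 1 was 130 bp away, at rank 8342. In the pooled list the promoter summit was the weakest of the 6. In replicate 3 it ranked ahead of the summit 5807 bp downstream, which ranked 2822, 4463 and 4326 in replicates 1, 3 and 4. The sixth, of rank 1920, lay 17507 bp downstream of the TSS, past the end of ptc in an intron of Acsl, an acyl-CoA synthetase gene. Its library ranks were 3389, 1751 and 1438, lowest in replicate 1.

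**Figure D2:**
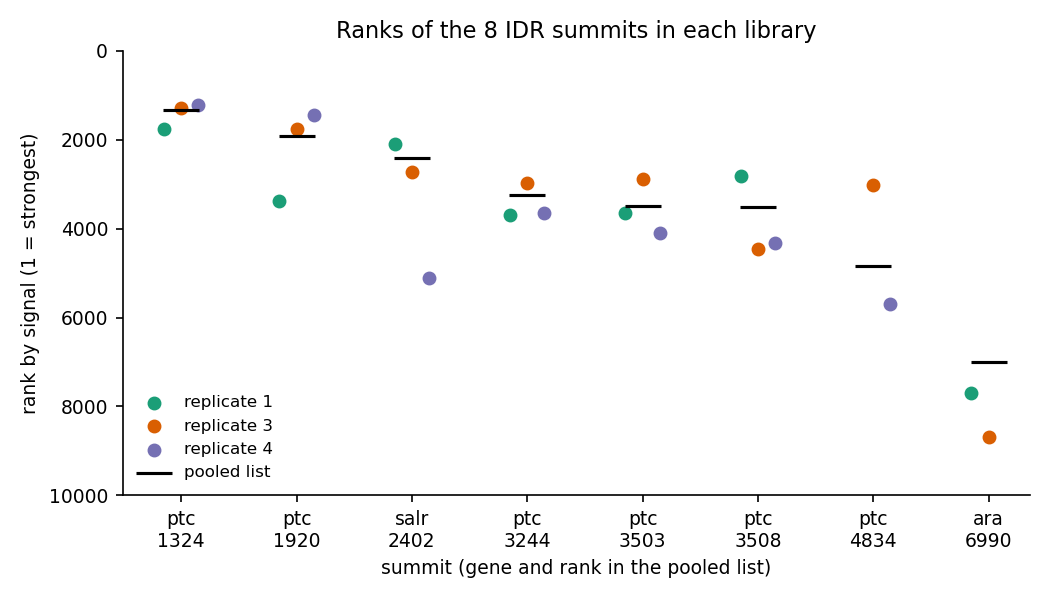
Rank by signal (vertical axis, strongest at the top) of the 8 IDR summits in each library, with the pooled rank as a bar. Points are absent where a library had no summit within 100 bp: replicate 1 at the ptc promoter (pooled rank 4834) and replicate 4 at ara (pooled rank 6990).

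Widening the window to 10 kb gave 13 IDR summits in 35.6 kb at ptc, or 3.65 per 10 kb, and 11 of them were matched in all 3 libraries. The strongest of these lay outside the 2 kb window, in intergenic sequence 5262 bp before the gene, with signal 594. It ranked 735 in the pooled list and 623, 803 and 788 in replicates 1, 3 and 4, and the nearest TSS was that of ptc. Others upstream lay 3026, 3705 and 9978 bp from the TSS, with ranks of 3369, 3409 and 2526. On the downstream side, 3 further summits lay in introns of Acsl, at ranks 3221, 3326 and 3416. The nearest TSS of each was that of Acsl. The summit of rank 3416 lay 241 bp from it, inside the 500 bp promoter limit, and 21315 bp from the TSS of ptc. Which gene these summits act on is not given by position. That of rank 3221 ranked 2543 and 1871 in replicates 1 and 4 and 11837 in replicate 3. Past the summit 5807 bp from the TSS, the rest of the ptc gene body held none in the IDR list. The 2 kb window held 12 weaker pooled summits.

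**Figure D3:**
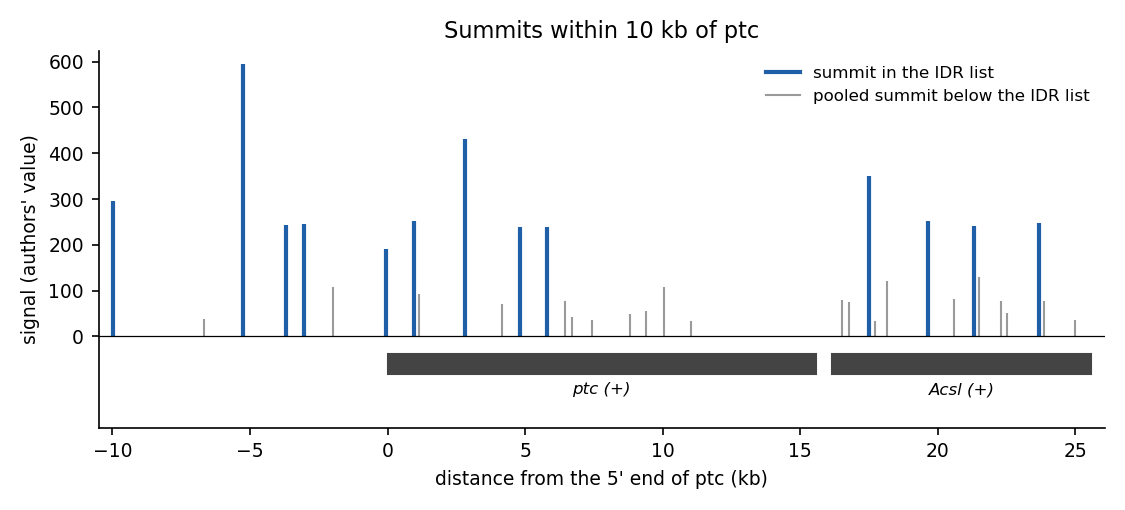
Signal (vertical axis, the authors' value) of each summit by distance in kb from the TSS of ptc, within 10 kb of the gene. Thick lines are the 13 IDR summits, thin lines weaker pooled summits, and dark bars are the protein-coding genes ptc and Acsl. The tallest line, 594, stands 5262 bp upstream of ptc.

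Engrailed, the posterior selector, is encoded by en (FBgn0000577) on 2R from 11524006 to 11528210, minus strand, beside its paralogue inv. The window of en held 5 pooled summits at ranks 13191 to 28809. None was found in all 3 library lists, and 1 was in none of them. The strongest lay 21 bp upstream of the TSS and ranked 7841 in replicate 1 and 13915 in replicate 3. The IDR summits of the locus lay elsewhere. Between inv and en, a stretch of 14310 bp, there were 2. That at 11516003, 8003 bp beyond the 3′ end of en, had signal 229 and rank 3713, with library ranks of 2512, 4943 and 4033. The other, 6 bp beyond the end of inv, ranked 6414 in the pooled list and 5991, 9444 and 5071 in replicates 1, 3 and 4. Inside inv lay 3 more, at ranks 1367, 1381 and 6614, so the strongest summits of the locus were in inv and not at en.

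The spalt genes salr and salm encode related zinc-finger proteins and lie 60674 bp apart. Of this pair salr (FBgn0000287), on 2L from 11358873 to 11373636, plus strand, had 1 IDR summit in its window and salm (FBgn0261648), from 11434311 to 11445614, minus strand, had none. The salr summit, at 11358640, was 233 bp before the TSS and had signal 306 and rank 2402. It ranked 2089 in replicate 1, 2721 in replicate 3 and 5101 in replicate 4, lowest in replicate 4, with a mean of 3304 ± 1588 (SD, n = 3). At salm, 3 pooled summits lay below the IDR list, the strongest, of rank 14483, 592 bp upstream of the TSS. Replicates 3 and 4 ranked that one 14822 and 10559, and replicate 1 had none within 100 bp. Of the pair, salr alone thus had promoter signal in the IDR list.

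Between salr and salm lay 5 further IDR summits, 0.824 per 10 kb, all in intergenic sequence 12937 to 26186 bp beyond the end of salr. The summit at 11386573 had signal 283 and rank 2711, with library ranks of 2631, 4223 and 2567 and a mean of 3140 ± 938 (SD, n = 3). It was the only one of the 5 matched in all 3 libraries. Overlapping peaks at 11399620 and 11399822 ranked 3647 and 5706. The first was found within 100 bp in replicate 1 alone, at rank 4140, and the second in replicates 1, 3 and 4, at ranks 8160, 3871 and 3175. The remaining pair ranked 5824 and 7203. The IDR summit of this stretch closest to salm was 34489 bp from that gene. The 2 strongest summits of the complex are shown, that at the salr promoter and the one between the genes.
salr promoter, 233 bp upstream, chr2L:11358590-11358690: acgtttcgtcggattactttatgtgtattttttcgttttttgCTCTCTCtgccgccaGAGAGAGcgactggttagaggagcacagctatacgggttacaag
between salr and salm, chr2L:11386523-11386623: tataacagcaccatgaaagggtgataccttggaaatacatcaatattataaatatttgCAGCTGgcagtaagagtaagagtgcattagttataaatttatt
The promoter summit held GAGAG or its complement at 4 overlapping places and no E-box. The summit between the genes held 1 E-box, CAGCTG, and was richer in A and T, with 30.7% GC against 45.5%.

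The Iroquois complex spans ara, caup and mirr on 3L, all on the plus strand, with 97620 bp between the end of ara and the start of mirr. The gene ara (FBgn0015904), from 12580672 to 12596018, had the only IDR summit in a window of the complex. It lay in an intron 10500 bp downstream of the TSS, at 12591172, with signal 143 and rank 6990. Replicates 1 and 3 ranked it 7698 and 8681, both outside their 7571 strongest, and the nearest summit of replicate 4 was 191 bp away, at rank 8135. So this summit was matched in 0 of the 3 libraries, and it stood just inside the threshold. Just outside it, at rank 7722, was a neighbour at 12591446, which had library ranks of 11032, 7933 and 8135.

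The genes caup (FBgn0015919, 12609631 to 12621798) and mirr (FBgn0014343, 12693639 to 12710249) had 8 and 15 pooled summits in their windows, all below the IDR list. At mirr the strongest ranked 8080, in an intron 10955 bp downstream of the TSS, with 6417 in replicate 1, 10199 in replicate 3 and none within 100 bp in replicate 4. Another lay 443 bp upstream of the TSS, at rank 8634, with library ranks of 6035, 10234 and 13505. At caup the strongest, of rank 9255, lay 124 bp upstream of the TSS and ranked 6277 in replicate 1 and 13463 in replicate 4. The strongest summits of caup and mirr thus stood below the IDR list, which ends at rank 7571. Between caup and mirr, over 71840 bp, lay 2 IDR summits, or 0.278 per 10 kb. The genome held 0.55 per 10 kb and the ara window 0.517, the latter from 1 summit. Counts this small do not order the densities, and the stretch was chosen after seeing the data. The summit of rank 3764 was 219 bp upstream of the TSS of lncRNA:CR43431 and ranked 3492, 2569 and 7770 in replicates 1, 3 and 4. The other, of rank 5051, lay in intergenic sequence 20523 bp before mirr, with library ranks of 9220, 4304 and 4594. The 3 IDR summits of the complex are shown, followed by the strongest summits of caup and mirr, which are below the IDR list.
between caup and mirr, rank 3764, chr3L:12653259-12653359: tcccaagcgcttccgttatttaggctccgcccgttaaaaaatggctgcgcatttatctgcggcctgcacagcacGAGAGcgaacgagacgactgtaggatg
between caup and mirr, rank 5051, chr3L:12673066-12673166: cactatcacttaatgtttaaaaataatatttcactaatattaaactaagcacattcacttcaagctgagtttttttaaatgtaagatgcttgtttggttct
ara intron, chr3L:12591122-12591222: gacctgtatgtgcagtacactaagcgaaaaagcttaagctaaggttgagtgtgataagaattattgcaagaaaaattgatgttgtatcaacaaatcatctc
caup promoter, chr3L:12609457-12609557: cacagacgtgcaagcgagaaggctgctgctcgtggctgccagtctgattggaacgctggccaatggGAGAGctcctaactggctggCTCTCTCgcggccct
mirr intron, chr3L:12704544-12704644: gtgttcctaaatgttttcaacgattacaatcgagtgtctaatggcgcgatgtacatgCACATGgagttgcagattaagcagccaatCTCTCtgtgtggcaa
Of the pair between caup and mirr, that of rank 3764 held GAGAG once, at 54.5% GC, and the other held neither motif, at 25.7% GC. The caup window was 62.4% GC and held GAGAG or its complement at 3 places, and the ara window, at 34.7% GC, held neither motif.

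**Figure D4:**
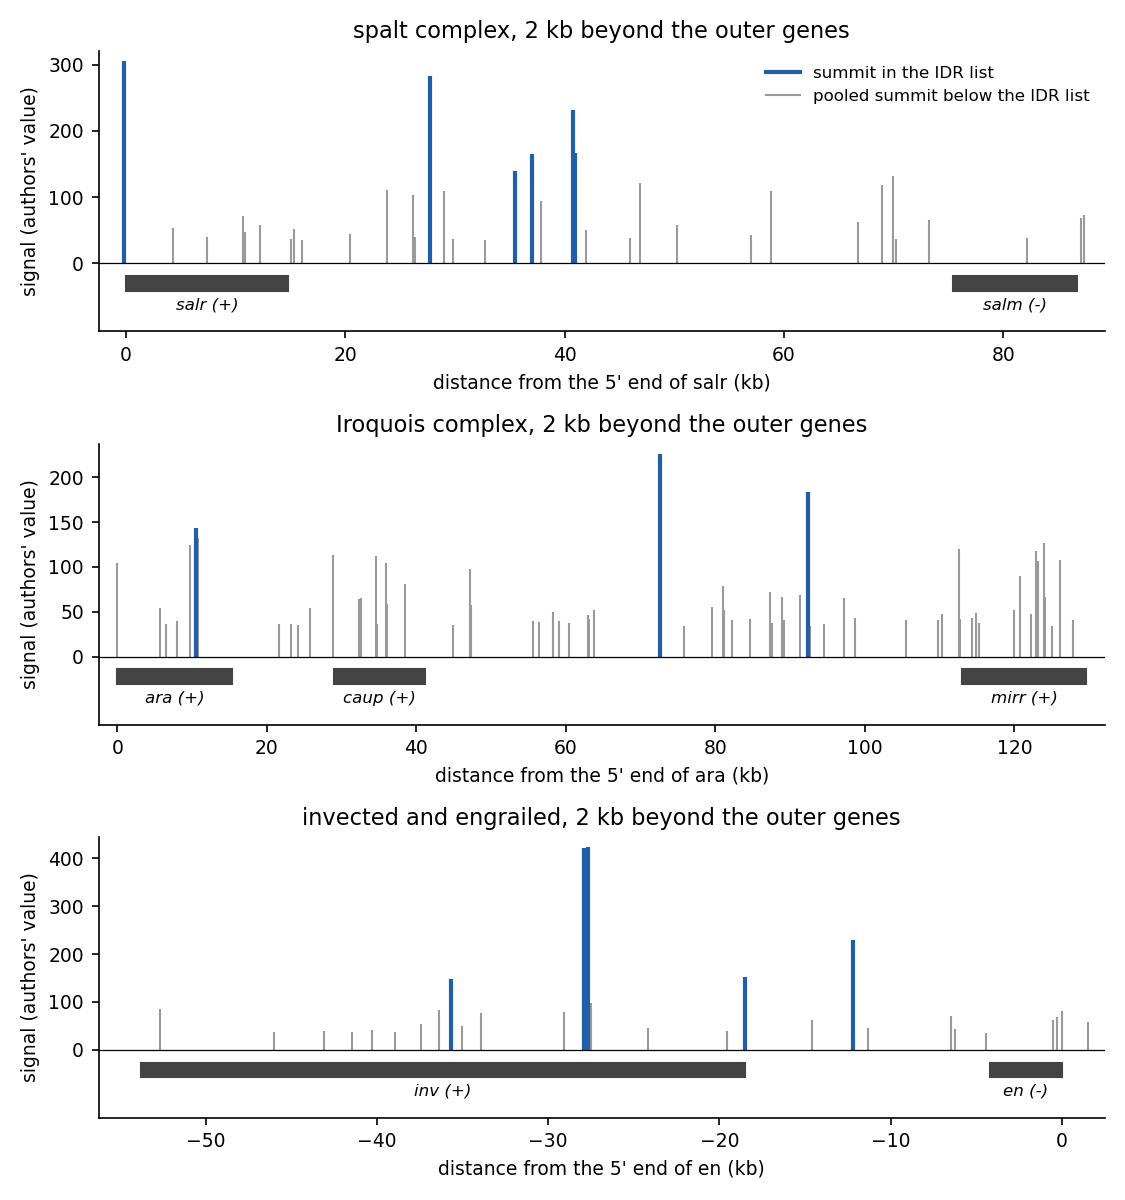
Signal (vertical axis, the authors' value) of pooled summits by distance in kb from the TSS of salr, ara or en, across the spalt complex, the Iroquois complex and the inv and en locus. Thick lines are IDR summits, thin lines weaker ones, and dark bars are the protein-coding genes. Between genes, 5 IDR summits lie from salr to salm and 2 from caup to mirr, and inv holds the tallest lines of its locus.

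Weak summits were common at these genes. All 9 had at least 1 pooled summit below the IDR list, 63 in all, against 44.8% of protein-coding genes and 61.9% of those in the same range of spans. Within that range genes were not matched for span, and all members but en span at least 9332 bp. An effect of gene length is therefore not separated. Per 10 kb of window, the number of these weaker summits was 7.28 at mirr, 6.13 at ptc, 6.09 at en, 4.95 at caup and 4.26 at salr. At ara it was 3.1, at hh 2.82, at salm 1.96 and at ci 0.75. Some of the summits come from overlapping peaks, such as those at 12703549 and 12703757 in mirr, so not all are separate sites. A summit counted for ptc lay 16 bp downstream of a TSS of Acsl. The genome held 1.63 per 10 kb, and 8 of the 9 genes were above that, ci being the exception. Of protein-coding genes in the same range of spans, 38.6% were above it. These summits repeated poorly: 13 of 63 (20.6%) were found in all 3 library lists, against 24.1% of all weaker pooled summits, which is near the background.

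The 8 IDR summits of the group are set beside all IDR summits in what follows. All 3 libraries matched 6 of 8 (75%, exact 95% binomial interval 34.9 to 96.8), against 56.8% of IDR summits, a figure inside the interval. Within 500 bp of a TSS lay 2 of 8 (25%, 3.19 to 65.1), those of ptc and salr, against 36.5%. The other 6 lay in introns. An E-box within 50 bp of the summit was present in 3 of 8 (37.5%, 8.52 to 75.5), all of them counted for ptc, against 36.7% of IDR summits and 42.5% of windows centred 250 bp to the side. GAGAG was present in 2 of 8, the promoter summits of ptc and salr, against 14.3% of IDR summits and 17.2% of the windows to the side. At IDR promoter summits in general the share was 17.6%. The core of Pho sites, GCCAT, was present in 2 of 8, both in introns of ptc, against 13.3% of IDR summits and 17.7% of the windows to the side. The site of Cubitus interruptus itself, GACCACCCA, was found at 0 of 8 and at 0.0132% of IDR summits. Both strands were searched for each motif. GC content was 39.5% ± 7.79 (SD across 8 windows) against 36.6% ± 10.2 over all IDR windows. The intervals cover counting error only, they take summits as independent although 6 of the 8 lie at 1 gene, and no difference from the background was tested. A motif match is a description of the sequence, not a binding site.

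Other genes of the pathway were read in the same way. Of 20 further Hedgehog pathway genes, 11 (55%) had an IDR summit, 55 summits in all, and 9 had none. Their median span was 6698 bp, and of protein-coding genes within 2-fold of that span, 45% had one. Many of the listed genes lie outside that range. Among those with a summit, rdx, dally, ttv, sgg and dlp span 39009 to 64997 bp. The shares of 55% and 45% are therefore not matched for length. The 9 without one were short, with spans of 1596 to 8234 bp, against 2816 to 64997 bp for the 11 with one. Among those 9 were smo, which encodes the signal transducer Smoothened, and fu, cos and Su(fu). The last 3 encode the intracellular kinase, kinesin-like and inhibitor proteins that act on Cubitus interruptus. Summits among the 757 strongest were found at 3 genes. The kinase gene sgg, which phosphorylates Cubitus interruptus, had 7 summits, the strongest 189 bp before a TSS, with signal 1104, rank 165 and library ranks of 147, 260 and 139. The gene rdx, whose protein targets Cubitus interruptus for degradation, had 16, the strongest 316 bp before a TSS, of rank 272 with library ranks of 307, 328 and 283. The glypican gene dlp, which helps Hedgehog bind cells, had 8, the strongest of rank 755 with library ranks of 645, 983 and 804. The summits of sgg and rdx thus fell inside the 500 bp promoter limit, and that of dlp lay in an intron 20140 bp from the nearest TSS of dlp. The annotation also places the sgg and rdx summits in introns of those genes.

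Of 9 further vein-positioning genes, dpp, kn, kni, knrl, ab, bi, brk, inv and bs, all but kni had an IDR summit, 8 of 9 (88.9%). Their spans were longer, with a median of 33613 bp against 13738 bp for the 9 genes described above. Of protein-coding genes within 2-fold of 33613 bp, 67.3% had an IDR summit. At dpp, the BMP ligand gene, the strongest of 3 summits lay 5285 bp downstream of the nearest TSS in an intron. It had signal 1027 and rank 197, with library ranks of 199, 181 and 189. Within this set, dpp alone had a summit among the 757 strongest. The strongest summit of a gene ranked 1325 at the median of these 8 genes, 1791 over the 11 Hedgehog pathway genes and 2402 over ptc, salr and ara. These medians describe lists of unequal length and span and were not tested.

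**Figure D5:**
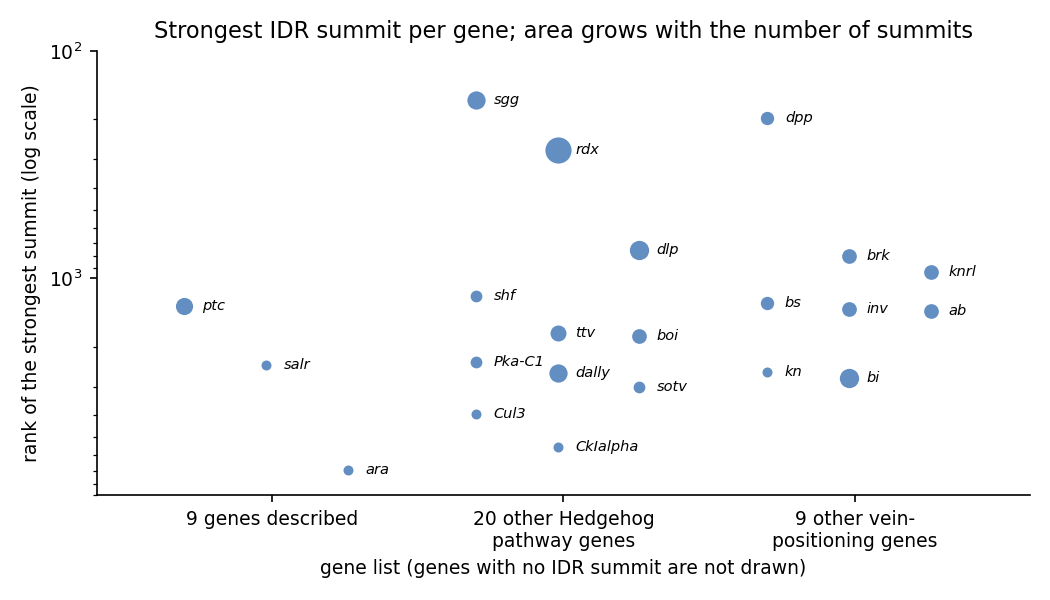
Rank of the strongest IDR summit per gene (vertical axis, log scale, strongest at the top) for the 3 of 9 genes described that have one, 11 of 20 other Hedgehog pathway genes and 8 of 9 other vein-positioning genes. Point area grows with the number of summits. The points of sgg, dpp, rdx and dlp lie above rank 757.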

How the data were processed

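ChIP-seq peak lists on build dm6 from 3 libraries were used. Per the deposited file descriptions, each library list and the pooled list were made from the library alignments and a further input, from which the control-normalized tracks were also made and which was not analysed here. The IDR list was derived from those lists. Neither aligner nor caller is named in the sources used. Signal values were deposited by the authors with no scale stated and were used for ranks. The summit offset, also deposited, gave each summit. From the Ensembl annotation, 71 genes off the main arms, transposable elements and pseudogenes were left out. The dm3 lists were not used. Genes, lists, motifs and the span ranges for background shares were chosen with earlier results of these data known. Named genes were the 9 genes with every IDR summit, and, from 2 further lists, those with a summit among the 757 strongest. A summit was matched to the nearest in another list within 100 bp. Motifs were sought within 50 bp of summits, and promoters were taken as 500 bp around a TSS. Shares have exact (Clopper-Pearson) 95% binomial intervals. No test was made, since the 3 libraries form 1 group and the lists hold no counts. Alternatives varied the window, threshold, match distance, promoter limit, motif distance and libraries. Functions were tested on simulated data. Python 3.11.15, numpy 2.4.6, pandas 2.3.3, scipy 1.17.1 and matplotlib 3.10.9 were used. Coordinates are 1-based.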

Additional observations from a re-analysis of the deposited data

How the results depend on the processing

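Counting only summits within the genes left 5 of the 8 IDR summits, at 2 genes, ptc and ara, of which 0% were at promoters (0 of 5, 95% interval up to 52.2). With 10 kb around each gene there were 20 summits at 6 genes, hh, ptc, ci, en, ara and salr, where 63.9% of protein-coding genes had one. The relaxed pooled list gave 71 summits at all 9 genes. The share of all genes with a summit in that full list is not given, so this count is no result about the group. Keeping only IDR summits above the median signal left ptc and salr, with 6 summits, all matched in the 3 libraries (100%, 54.1 to 100). No share over all genes or all IDR summits is given for this setting or the gene-only one. The counts and the 100% are therefore no result about these genes. Counting the stretches between neighbouring genes as well, chosen after seeing the data, gave 17 summits, of which 47.1% were matched in all libraries. Leaving out 1 library at a time, with matches required in both others, gave 6 to 7 summits at 2 genes, ptc and salr. The summit at ara, matched in 0 of the 3 libraries, is removed by that match requirement, whichever library is left out. Matched shares ranged from 75 to 87.5%, promoter shares from 16.7 to 28.6% and E-box shares from 42.9 to 50% without 1 library. Shares over all genes and all IDR summits are not given without 1 library. These counts and shares are therefore no result about the genes. With limits of 200 and 1000 bp the promoter share was 12.5% and 62.5%, and with E-boxes within 25 and 100 bp the E-box share was 12.5% and 62.5%. The summits added at 1000 bp lay 895 and 960 bp from the TSS of lncRNA:CR44281 and 985 bp from that of Acsl. The first was also 952 bp from the TSS of ptc. No share over all IDR summits is given at these changed limits. The dm3 list was not run for want of a dm3 annotation. No paired analysis was possible because the libraries form 1 group. The unknown depth limits whether a gene without an IDR summit lacks signal.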
